A study of Hordeum vulgare with 30 samples.

Results

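The response of barley roots to 24 h of waterlogging was measured here in Golden Promise, a two-row spring variety that is widely used as a model and for transformation. Its 6 RNA-seq libraries, 3 from waterlogged and 3 from control roots, were selected by variety and treatment out of the 30 libraries of a study that also covered the winter varieties Infinity, Passport, Pilastro and Regina with 6 libraries each. In the waterlogged group, 10-day-old Golden Promise plants stood for 24 h with the water level above the soil surface. In the control group, plants of the same variety and age were watered normally. Each library was made from the pooled roots of 3 plants, so differences between single plants are not seen, and the experiment was run independently 3 times, without a statement of which replicate number belongs to which run. Golden Promise is the only spring variety of the series, so what belongs to the variety and what belongs to spring barley cannot be told apart. All genes of the Morex V3 annotation that passed a filter on low counts were examined, 20576 of 35826. Gene IDs are given without their shared prefix HORVU.MOREX.r3, and the characters before HG name the chromosome.

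Waterlogged soil loses its oxygen because gases diffuse slowly through water, and root cells then make ATP mainly by glycolysis. To keep glycolysis running they ferment pyruvate to ethanol, using pyruvate decarboxylase and alcohol dehydrogenase. In Arabidopsis the genes for these enzymes are switched on by the group VII ethylene response factors (ERF-VIIs), transcription factors that plant cysteine oxidases mark for degradation as long as oxygen is present. Ethylene, trapped in flooded tissue, and nitric oxide, which phytoglobins (plant hemoglobins) remove, act on the stability of the same proteins.

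The 6 libraries held between 11895171 and 12349136 counts, so depth was close to equal. Levels below are in CPM, the counts of a gene per 1000000 counts of its library, scaled by TMM, a normalization that corrects for differences in library composition. The cell identity of the samples was checked with short marker lists. Of 7 genes described as nitrate transporter 1.1 or proline-rich DC2.15-type root proteins, 1 had no count in any library, and the summed level was 141 to 175 CPM in waterlogged and 181 to 209 CPM in control roots. The lower sum came from nitrate transporter 1.1, since the 6 DC2.15-type genes alone summed to 62.9, 70.4 and 77.9 CPM in waterlogged and 43.5, 63.9 and 36.7 CPM in control roots, with overlapping groups. Of the 5 root markers that passed the filter, 1 was higher and 1 lower at an unadjusted edgeR p under 0.05, and their median log2 fold change was 0.219. The 4 genes of green shoots summed to 38.3 to 40.4 CPM in waterlogged and 42.2 to 45.6 CPM in control roots, most of it from chlorophyll synthase, while the Rubisco small chain did not exceed 1.65 CPM in any library. The 10 grain storage globulin genes summed to 172 to 326 CPM in waterlogged and 262 to 454 CPM in control roots. This sum was above the root sum in each of the 6 libraries, so these lists do not tell root from grain here. An exact two-sided permutation test over the 6 libraries gave p = 0.1 for the root and shoot sums, the smallest p that 3 against 3 libraries allow, and p = 0.2 for the grain sum. The part of these markers in the results below was not tested, and fewer cells of a type and less RNA per cell cannot be told apart in whole roots.

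Waterlogging changed 91 genes in Golden Promise roots at an adjusted p under 0.05 (quasi-likelihood F-test of edgeR, Benjamini-Hochberg), 0.442% of the genes tested. Of these, 78 (0.379% of all genes tested) were upregulated and 13 (0.0632%) downregulated. The upregulated genes had a median log2 fold change of 2.56 and the downregulated genes one of -1.72, while the median over all genes tested was -0.0264. At an unadjusted p under 0.05, 769 genes (3.74%) were higher and 566 (2.75%) lower in waterlogged than in control roots. All 3 waterlogged libraries lay above all 3 controls for 1333 genes (6.48%) and below them for 1173 (5.7%).

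The number of calls rested on all 6 libraries. It was 39 without waterlogged replicate 1, 23 without waterlogged replicate 2, 60 without waterlogged replicate 3, 19 without control replicate 1, 19 without control replicate 2 and 7 without control replicate 3. In each of these 6 fits, all 91 genes kept their direction and an unadjusted edgeR p under 0.05. The 91 were selected on these same libraries, so this outcome was largely set in advance. The number of calls also depended on the tool, since DESeq2 called 231 genes, among them all 91. Over the 78 upregulated genes, the mean log2 level above the control mean was 2.61, 3.06 and 2.70 in waterlogged replicates 1, 2 and 3, against -0.132, 0.194 and -0.0625 in the controls. Waterlogged replicate 2 was thus the highest of the treated libraries and control replicate 2 the highest of the controls.

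Of the 78 upregulated genes, 20 carry a name from the study or a description, and 10 of these are hypoxia response genes. Some of the 10 count as named only because the study lists them as hypoxia genes, so this share was partly set in advance. Of 14 genes that the study names as hypoxia response genes, all 14 passed the filter. In edgeR 10 were upregulated, beside 0.379% over all genes, none was downregulated and 4 did not pass the test. DESeq2 called 12 of the 14. The median log2 fold change of the 14 was 3.51, and for 13 of them every waterlogged library was above all controls, beside 6.48% of all genes. The study took HvHB, HvADH1 and HvPDC1 as known markers from earlier work and measured them by RT-qPCR before sequencing. It named the other genes with the same samples at hand, so the direction of those is not independent evidence. Among the ERF-VII homologs, HRE1 (4HG0405650) had 1468, 1546 and 1561 CPM in waterlogged roots, against 498, 487 and 363 CPM in control roots. The 3 waterlogged libraries were nearly equal and about 3 times as high as any control, with a log2 fold change of 1.76 (SE 0.364, edgeR adjusted p = 0.0278). RAP2.3 (1HG0060770) had 38.1, 39.9 and 32.2 CPM in waterlogged roots, against 2.35, 4.85 and 4.19 CPM in control roots. It rose by 3.27 on the log2 scale (SE 0.581, edgeR adjusted p = 0.0128), and its lowest waterlogged library stood far above its highest control.

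HRE2 (5HG0497970) had 38.9, 54.9 and 32.2 CPM in waterlogged roots, against 3.97, 3.07 and 2.3 CPM in control roots. These groups did not overlap either, but with a log2 fold change of 3.75 (SE 0.861) the gene stayed just above the threshold (edgeR adjusted p = 0.0512). RAP2.12 (5HG0481240), whose Arabidopsis counterpart is present before oxygen runs short and acts as an oxygen sensor, had 209, 191 and 203 CPM in waterlogged roots, against 123, 148 and 156 CPM in control roots. All 3 waterlogged libraries were higher, yet the log2 fold change of 0.50 (SE 0.200) did not pass (edgeR adjusted p = 0.579). The second RAP2.3 homolog (2HG0112960) was low throughout, with 1.66, 3.65 and 2.90 CPM in waterlogged and 0.567, 0.889 and 1.73 CPM in control roots. It is the member of the list whose groups overlapped (log2 fold change 1.36, SE 0.703, edgeR adjusted p = 0.825).

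Genes for the enzymes of ethanol fermentation were among those that rose. HvPDC1 (4HG0384560), a pyruvate decarboxylase that turns pyruvate into acetaldehyde, had 459, 607 and 511 CPM in waterlogged roots, against 66.4, 106 and 72.1 CPM in control roots. The groups lay well apart, and the log2 fold change was 2.69 (SE 0.457, edgeR adjusted p = 0.00872). HvADH1 (4HG0345760), an alcohol dehydrogenase that reduces acetaldehyde to ethanol and regenerates NAD+, had 205, 396 and 199 CPM in waterlogged roots, against 25.1, 35.6 and 24.9 CPM in control roots. Waterlogged replicate 2 was nearly 2 times as high as the other waterlogged libraries, which still exceeded every control (log2 fold change 3.22, SE 0.549, edgeR adjusted p = 0.00872).

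The neighbouring gene on chromosome 4H, ADH1_D (4HG0345740), had 249, 471 and 199 CPM in waterlogged roots, against 9.24, 14.4 and 7.81 CPM in control roots. The order of the libraries was the same as for HvADH1 and the change was larger, at 4.87 on the log2 scale (SE 0.778, edgeR adjusted p = 0.00537). ADH1_B (2HG0115170) and ADH1_C (3HG0252910) had no count in any control. ADH1_B had 25.7, 46.6 and 27.0 CPM in waterlogged roots, at least 136-fold higher than a floor of 3 counts per control library (edgeR adjusted p = 0.0214). ADH1_C had 7.11, 13 and 6.84 CPM in waterlogged roots, at least 36.8-fold higher than the same floor (edgeR adjusted p = 0.0294). ADH1_A (1HG0082960) had 14.1, 30.6 and 5.88 CPM in waterlogged roots, against 1.38, 2.1 and 0 CPM in control roots. Its waterlogged libraries differed among themselves by more than those of the other copies, and it did not pass (log2 fold change 3.84, SE 0.973, edgeR adjusted p = 0.103).

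Over the whole family, 40 genes were described as alcohol dehydrogenases, 8 of them without a count in these 6 libraries, and 30 passed the filter. The upregulated members were the 4 above, 26 did not pass the test, and none was downregulated, beside 0.379% up and 0.0632% down over all genes. The family median of 0.144 on the log2 scale stood close to the median over all genes of -0.0264. Changes called by edgeR were thus limited to 4 copies. At an unadjusted edgeR p under 0.05, 7 of the 30 were higher and 2 lower, beside 3.74% and 2.75% of all genes. The lowest fitted log2 fold change of the family was -4.555. One further member, 5HG0479000, had 34.9, 50.8 and 40.3 CPM in waterlogged roots, against 23.7, 21 and 23 CPM in control roots, without passing the test (log2 fold change 0.90, SE 0.311, edgeR adjusted p = 0.396). Copies of this family are similar in sequence, and reads that the authors' counting could have divided among them make the level of a single copy uncertain.

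Both phytoglobin genes of the list rose. Phytoglobins remove nitric oxide, which builds up in oxygen-starved roots. HvHB (4HG0394960) had 23.1, 68.7 and 20.7 CPM in waterlogged roots, against 0, 1.29 and 0 CPM in control roots. The gene was thus close to silent in control roots and present in every waterlogged library, with replicate 2 about 3 times as high as the other 2 (log2 fold change 6.40, SE 1.09, edgeR adjusted p = 0.00872). HB1_A (7HG0715010) had 121, 184 and 104 CPM in waterlogged roots, against 43.2, 52.1 and 53.2 CPM in control roots. It was well expressed in both groups and changed less, by 1.46 on the log2 scale (SE 0.333, edgeR adjusted p = 0.0494).

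RBOH (5HG0444960), a respiratory burst oxidase that makes superoxide at the plasma membrane, had 129, 204 and 178 CPM in waterlogged roots, against 6.24, 11.1 and 9.29 CPM in control roots. The lowest waterlogged library stood more than 10 times as high as the highest control (log2 fold change 4.26, SE 0.811, edgeR adjusted p = 0.0186). The calls of the 10 hypoxia genes depended on the libraries in the fit. Without waterlogged replicates 1, 2 and 3, edgeR called 7, 5 and 8 of them, and without control replicates 1, 2 and 3 it called 1, 4 and 0, with adjusted p from 0.0679 to 0.214 in the last case. In all 6 fits each of the 10 genes kept an unadjusted p under 0.05 and a log2 fold change of 1.19 or more, and DESeq2 called all 10 (highest adjusted p = 0.00129).

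**Figure D1:**
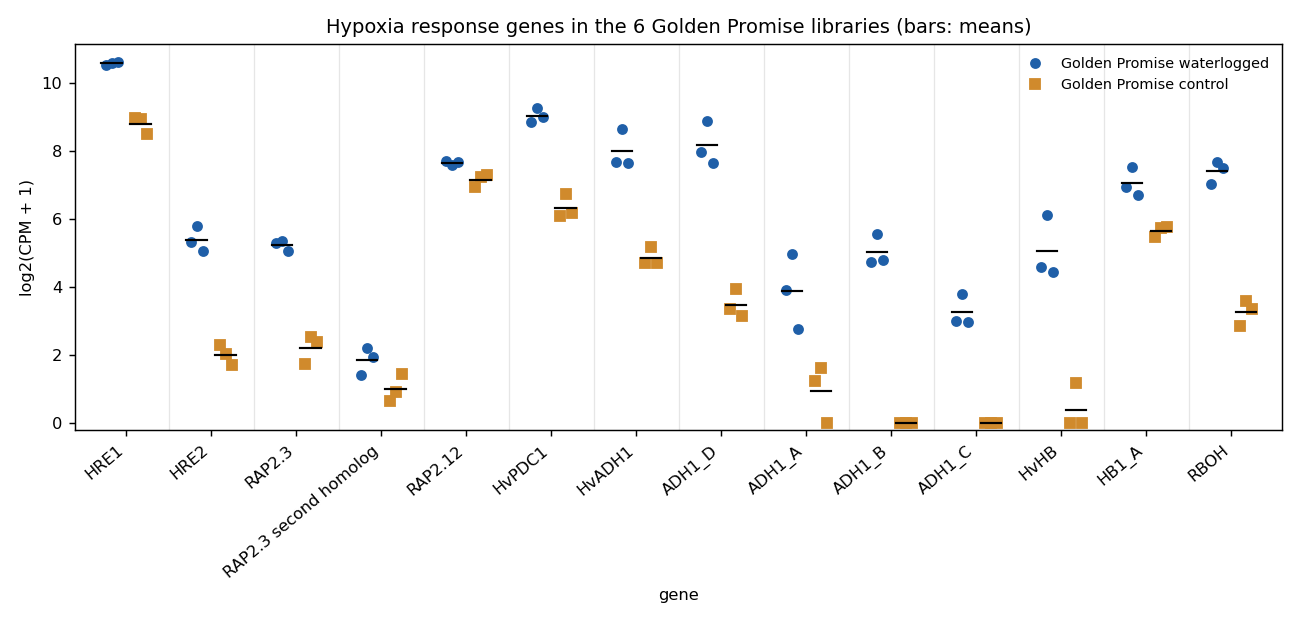
Levels of the 14 hypoxia response genes as log2(CPM + 1) on the vertical axis, with 3 waterlogged libraries (circles) left of 3 control libraries (squares) for each gene and horizontal bars at the means. The groups are separate for 13 of the 14 genes and overlap for the second RAP2.3 homolog, ADH1_B and ADH1_C are at 0 in every control, and waterlogged replicate 2 (middle circle) is the highest for most genes.

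Genes described as 2-aminoethanethiol dioxygenases, the annotation under which plant cysteine oxidases fall, rose in part. All 6 members passed the filter, 3 were upregulated, beside 0.379% of all genes, and 3 did not pass the test, with a median log2 fold change of 1.94. The gene 5HG0425080 had 194, 285 and 222 CPM in waterlogged roots, against 19.4, 35.9 and 18.8 CPM in control roots (log2 fold change 3.24, SE 0.679, edgeR adjusted p = 0.0294). The gene 1HG0094490 had 108, 122 and 133 CPM in waterlogged roots, against 24.4, 38.9 and 30.1 CPM in control roots (log2 fold change 1.95, SE 0.411, edgeR adjusted p = 0.0294). The third, 2HG0208830, had 121, 124 and 98.4 CPM in waterlogged roots, against 23.5, 41.5 and 25.3 CPM in control roots (log2 fold change 1.93, SE 0.387, edgeR adjusted p = 0.022). In each of the 3 genes the groups did not overlap, and control replicate 2 was the highest control.

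The next gene on chromosome 5H, 5HG0425090, had 59, 92 and 37 counts in waterlogged roots and none in control roots, at least 20.4-fold higher than a floor of 3 counts per library. It was not called (edgeR adjusted p = 0.285), and in the 12 winter control libraries it ranged between 0 and 15.0 CPM. The other 2 members stayed level: 6HG0605360 had 53.9, 59.8 and 48.2 CPM in waterlogged roots, against 57.6, 55.3 and 50.2 CPM in control roots. The family thus contained copies that were much higher under waterlogging beside copies that differed by less than the spread between libraries. Without control replicate 1, 2 or 3 or waterlogged replicate 1 or 2, none of the 3 was called by edgeR (adjusted p from 0.0526 to 0.22), and without waterlogged replicate 3 only 2HG0208830 was (adjusted p = 0.0416). All 3 kept an unadjusted edgeR p under 0.05 in these fits, and DESeq2 called all 3.

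Ethylene is made from 1-aminocyclopropane-1-carboxylate (ACC), which ACC synthase produces and ACC oxidase converts. Of 14 genes for these enzymes, 13 passed the filter, 1 was upregulated, beside 0.379% of all genes, and 12 did not pass the test, with a median log2 fold change of 0.665. The ACC oxidase 1 gene 7HG0746640 had 152, 201 and 123 CPM in waterlogged roots, against 7.62, 11.1 and 6.74 CPM in control roots. Every waterlogged library was more than 10 times as high as any control (log2 fold change 4.23, SE 0.648, edgeR adjusted p = 0.00324), and the call was lost without control replicate 3 (adjusted p = 0.0641). At the threshold of an unadjusted p under 0.05, 5 of the 13 members were higher, this one included, and 2 were lower, beside 3.74% and 2.75% of all genes. The neighbouring ACC oxidase genes 5HG0485780 (log2 fold change 1.61, edgeR adjusted p = 0.113) and 5HG0485790 (0.94, edgeR adjusted p = 0.13) did not overlap between groups.

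A further ACC oxidase gene was lower rather than higher. It is 4HG0347170, with 2.05, 1.99 and 4.51 CPM in waterlogged roots, against 17.4, 6.79 and 16.9 CPM in control roots. The groups did not overlap, but the difference did not pass the test (log2 fold change -2.26, SE 0.588, edgeR adjusted p = 0.113). Of 10 genes described as abscisic acid receptors, which start the signalling of this stress hormone, 8 passed the filter, 1 was upregulated, beside 0.379% of all genes, and 7 did not pass. The upregulated receptor, 1HG0071710, had 41.1, 44.6 and 45.6 CPM in waterlogged roots, against 22, 22.7 and 12.3 CPM in control roots. The waterlogged libraries were close together and the change was about 2-fold (log2 fold change 1.2, SE 0.260, edgeR adjusted p = 0.0364). This call was lost whichever library was left out, with edgeR adjusted p from 0.0799 without waterlogged replicate 1 to 0.305 without control replicate 3.

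**Figure D2:**
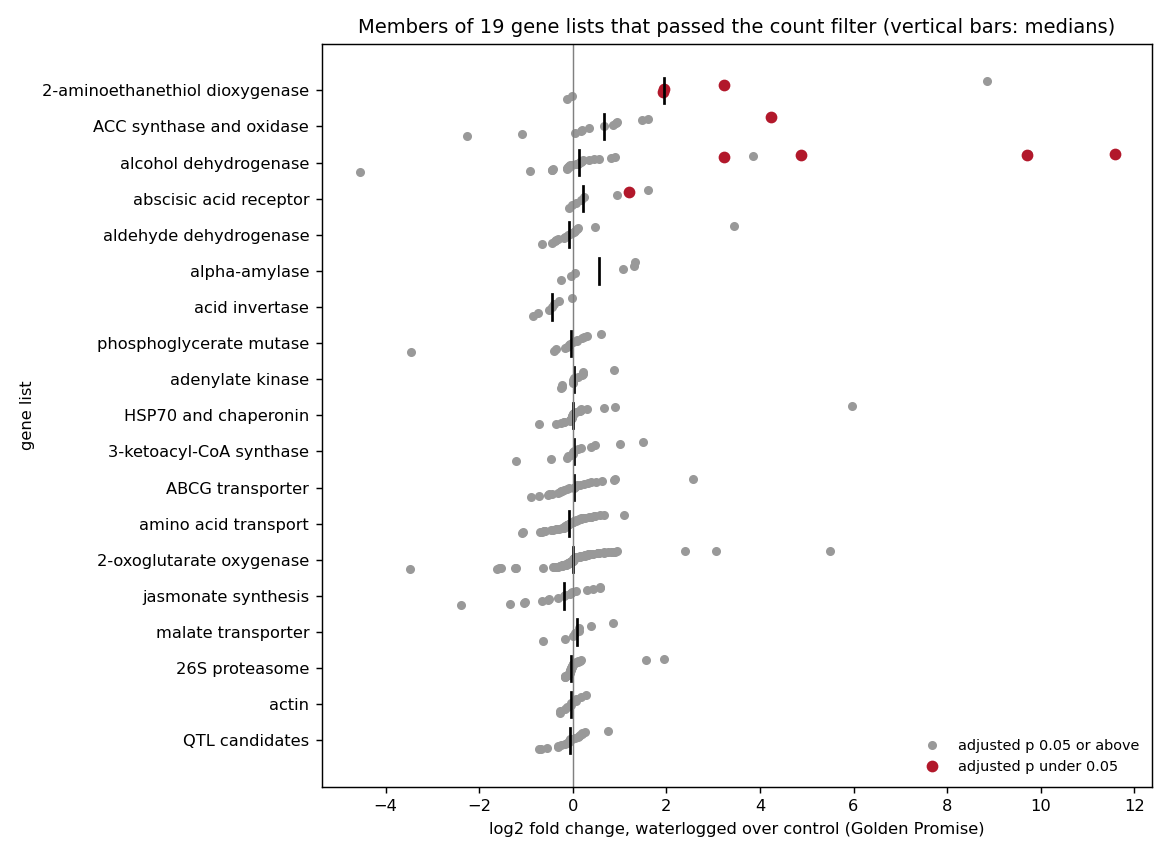
Log2 fold change, waterlogged over control, on the horizontal axis for each gene that passed the filter in 19 gene lists (rows), with genes at an edgeR adjusted p under 0.05 in red and list medians as vertical bars. Called genes appear in 4 of the 19 lists, with 3, 1, 4 and 1 genes from the top, and the medians of the other 15 lists lie between -0.441 (acid invertase) and 0.563 (alpha-amylase). Fitted values of genes with a group at 0, such as those beyond 8, are no measure of size.

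The remaining described genes that rose had other roles. Early nodulin 93 (7HG0649530), named after nodules of legumes, had 62.6, 84.6 and 36.8 CPM in waterlogged roots and no count in any control, at least 251-fold higher than a floor of 3 counts per library (edgeR adjusted p = 0.0493). A gene for an acyl-[acyl-carrier-protein] desaturase (3HG0307490), an enzyme that puts the first double bond into fatty acids, had 68.3, 147 and 83.4 CPM in waterlogged roots, against 3.16, 6.31 and 2.55 CPM in control roots. It rose by 4.63 on the log2 scale (SE 0.882, edgeR adjusted p = 0.0186), and waterlogged replicate 2 was again the highest library. Without control replicates 1, 2 or 3 or waterlogged replicate 2 the desaturase was not called (edgeR adjusted p = 0.111, 0.0759, 0.163 and 0.0783), and the call of Early nodulin 93 was lost whichever of the 6 libraries was left out (edgeR adjusted p from 0.0706 to 0.229).

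A pair of described genes kept their calls whichever library was left out. The serine/threonine-protein kinase gene 2HG0203170 had 195, 264 and 242 CPM in waterlogged roots, against 56.0, 53.9 and 46.1 CPM in control roots (log2 fold change 2.17, SE 0.299, edgeR adjusted p = 0.00133). The aspartyl protease gene 1HG0063330, for an enzyme that cleaves proteins, had 25.7, 45.3 and 30.3 CPM in waterlogged roots, against 10.5, 10.1 and 8.22 CPM in control roots (log2 fold change 1.81, SE 0.251, edgeR adjusted p = 0.00133). Both had controls that lay close together. The gene for subunit A of translation initiation factor 3 (7HG0646350), part of a complex that loads ribosomes onto mRNA, was called on few reads. It had 0, 11 and 38 counts in waterlogged roots and none in control roots, so that the groups overlapped, and its call was lost without waterlogged replicate 3 or control replicate 1, 2 or 3 (edgeR adjusted p = 0.0536, 0.0783, 0.0813 and 0.108). The winter varieties had between 4.88 and 9.24 CPM of it in all 24 libraries.

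Most of the 78 upregulated genes had no description at hand. The pair with the smallest p were 2HG0101120 and 2HG0176040. The gene 2HG0101120 had 7.19, 7.63 and 11.4 CPM in waterlogged roots, against 1.54, 1.78 and 1.23 CPM in control roots (log2 fold change 2.52, SE 0.328, edgeR adjusted p = 0.00133). The gene 2HG0176040 had 33.2, 29.9 and 34.7 CPM in waterlogged roots, against 18.9, 17 and 15.5 CPM in control roots (log2 fold change 0.93, SE 0.131, edgeR adjusted p = 0.00138). Both changes were moderate in size, with little spread within each group. Of the 91 genes, 7 were called in all 6 fits with a library left out, among them these 2.

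Genes that fell were fewer and mostly at low levels. The study names 7 genes as lowered, chosen on these same samples, so their direction is not independent evidence. All 7 passed the filter, and edgeR called 2 as downregulated, beside 0.0632% over all genes. The other 5 did not pass its test, while DESeq2 called all 7. For all 7 every waterlogged library was below all controls, beside 5.7% of all genes. Their median log2 fold change was -1.54. The neighbouring peroxidase genes 2HG0119650 and 2HG0119630 fell. Such peroxidases use hydrogen peroxide to oxidise phenolic compounds of the cell wall. The gene 2HG0119650 had 0.474, 0.397 and 0.724 CPM in waterlogged roots, against 5.43, 7.76 and 8.72 CPM in control roots (log2 fold change -3.75, SE 0.729, edgeR adjusted p = 0.0242). The gene 2HG0119630 had 0.395, 0.556 and 0.644 CPM in waterlogged roots, against 6.16, 8.73 and 7.65 CPM in control roots (log2 fold change -3.79, SE 0.822, edgeR adjusted p = 0.0475). The 2 genes moved in parallel, and reads shared between them would make the level of each uncertain. Both calls were lost whichever library was left out, with edgeR adjusted p from 0.0615 to 0.242.

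Another peroxidase, 2HG0215440, had 0.316, 0 and 0.241 CPM in waterlogged roots, against 0.891, 1.13 and 2.39 CPM in control roots (edgeR adjusted p = 0.126). Nitrate transporter 1.1 (7HG0700030), which takes up and senses nitrate, had 82.7, 70.6 and 97.2 CPM in waterlogged roots, against 137, 146 and 151 CPM in control roots (log2 fold change -0.79, SE 0.214, edgeR adjusted p = 0.137). The vacuolar cation/proton exchanger 3HG0266310 had 4.34, 4.21 and 5.80 CPM in waterlogged roots, against 17.3, 12 and 12.4 CPM in control roots (log2 fold change -1.54, SE 0.371, edgeR adjusted p = 0.0713). In these genes every waterlogged library was below every control, without a call in edgeR. The aminotransferase 2HG0190680 (log2 fold change -0.81, edgeR adjusted p = 0.14) and the aldehyde dehydrogenase 2HG0173750 (-0.43, edgeR adjusted p = 0.111) showed smaller differences of the same direction.

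**Figure D3:**
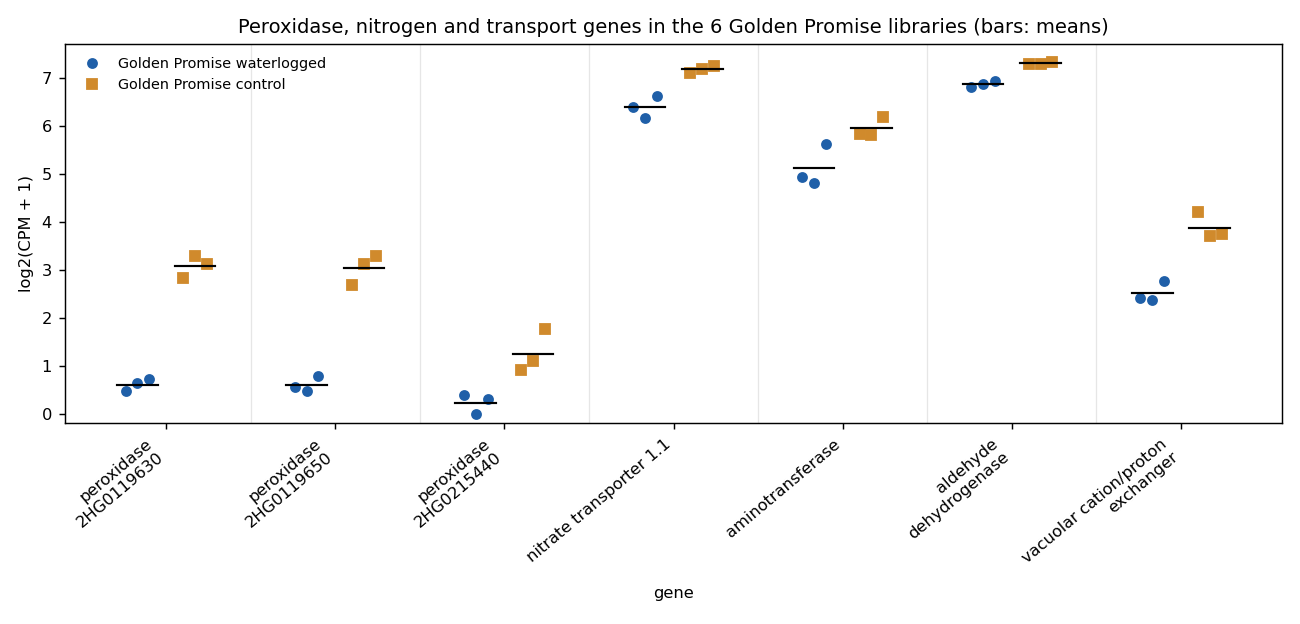
Levels of 7 genes named as lowered, as log2(CPM + 1) on the vertical axis, with 3 waterlogged libraries (circles) left of 3 control libraries (squares) for each gene and horizontal bars at the means. Every waterlogged library lies below every control in all 7 genes, beside 5.7% of all genes. The 2 leftmost peroxidases, which edgeR called, have the widest gap.

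Among the described genes outside these lists, 7 fell. A gene for an SGF29 tudor-like protein (5HG0450920), known in yeast and animals as a part of the SAGA histone acetylation complex, had no count in any waterlogged library, against 19.8, 17.4 and 17.6 CPM in control roots. It was at least 76.5-fold lower in waterlogged roots against a floor of 3 counts per library, with the smallest adjusted p among the genes that fell (edgeR adjusted p = 0.00133), and the call held without each of the 6 libraries. The carbonic anhydrase gene 5HG0487570, for an enzyme that interconverts carbon dioxide and bicarbonate, had 19.6, 18.8 and 29.4 CPM in waterlogged roots, against 55.2, 57.3 and 56.7 CPM in control roots (log2 fold change -1.32, SE 0.271, edgeR adjusted p = 0.0265). The methylsterol monooxygenase gene 4HG0347570, for an enzyme of sterol synthesis, had 28, 21.8 and 41.6 CPM in waterlogged roots, against 88.2, 57.0 and 123 CPM in control roots (log2 fold change -1.55, SE 0.346, edgeR adjusted p = 0.0426). The groups of these 3 genes did not overlap.

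The glutathione-S-transferase gene 3HG0299990 fell to 0.158, 0.159 and 0.241 CPM in waterlogged roots, against 1.13, 1.46 and 1.97 CPM in control roots (log2 fold change -2.96, SE 0.643, edgeR adjusted p = 0.0367). The RPH8A disease resistance gene 5HG0425370 was also close to the filter, with 0.711, 0.556 and 1.13 CPM in waterlogged roots, against 3.73, 2.18 and 2.06 CPM in control roots (edgeR adjusted p = 0.0223). Smaller decreases were found for a gene related to pathogenesis-related protein PR-10 (2HG0197370, log2 fold change -0.89, edgeR adjusted p = 0.0498) and for Embryo-specific 3 (3HG0241630, log2 fold change -0.88, edgeR adjusted p = 0.0386). Of the 7 genes, SGF29 alone was called without waterlogged replicate 1 or 2 or without any control, and 5 of the 7 were called without waterlogged replicate 3, while all 7 kept an unadjusted edgeR p under 0.05 and DESeq2 called all 7. Of the downregulated genes without a description, 1HG0079870 had 7.74, 8.74 and 7.65 CPM in waterlogged roots, against 16.0, 22.6 and 22 CPM in control roots (log2 fold change -1.32, SE 0.203, edgeR adjusted p = 0.00324). The gene 4HG0404730 was nearly absent in both groups, with 0, 2 and 0 counts in waterlogged roots and 10, 8 and 10 counts in control roots (edgeR adjusted p = 0.0182), and its call was lost without waterlogged replicate 1 or 3 or control replicate 1 or 3 (edgeR adjusted p = 0.0746, 0.0629, 0.0579 and 0.082).

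The other gene lists, mostly families of carbohydrate use, stress and transport, had no member called by edgeR in Golden Promise. Families were listed only where the descriptions at hand held them whole, so further families of these kinds were not examined. These 15 lists held 353 genes that passed the filter. Of these genes, 16 (4.53%) were higher and 13 (3.68%) lower at an unadjusted edgeR p under 0.05, beside 3.74% and 2.75% of all genes. DESeq2 called 2 up and 2 down. Among genes for the breakdown of starch and sugars and for energy charge, no gene passed the test out of 6 alpha-amylases, 7 acid invertases, 14 phosphoglycerate mutases and 12 adenylate kinases, and their medians were 0.563, -0.441, -0.033 and 0.022 on the log2 scale. The alpha-amylase 7HG0721200, a starch-degrading enzyme, had 12.3, 13.7 and 13.8 CPM in waterlogged roots, against 6.24, 4.37 and 5.51 CPM in control roots (log2 fold change 1.3, edgeR adjusted p = 0.365). The phosphoglycerate mutase 1HG0019100, an enzyme of glycolysis, had 19.5, 23.5 and 21.5 CPM in waterlogged roots, against 12.7, 15.9 and 13.9 CPM in control roots (log2 fold change 0.60, edgeR adjusted p = 0.117). Both sat above all controls without a call.

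Of the acid invertases, which split sucrose, all 7 had a negative log2 fold change, from -0.839 to -0.021, and all 7 overlapped between groups. None of 16 aldehyde dehydrogenases passed (median -0.08), and in 4 of them every waterlogged library was below all controls, beside 5.7% of all genes. None of the 26 HSP70 and chaperonin genes, 35 proteasome genes and 10 actins passed, with medians of -0.002, -0.033 and -0.034. The same was true of 14 3-ketoacyl-CoA synthases, which build long-chain fatty acids, and of 25 ABCG transporters, 50 amino acid transporters, 8 malate transporters, 91 2-oxoglutarate oxygenases and 18 jasmonate synthesis genes, with medians between -0.184 and 0.095. Setting genes with a group at 0 to their bound against the floor moved the medians of the phosphoglycerate mutases, ABCG transporters and 2-oxoglutarate oxygenases to -0.002, 0 and 0, and no other median of these lists. In jasmonate synthesis, the allene oxide synthase 6HG0579680 had 95.4, 99.0 and 197 CPM in waterlogged roots, against 331, 214 and 260 CPM in control roots (log2 fold change -1.04, edgeR adjusted p = 0.48). Of 28 candidate genes from earlier waterlogging QTL that the study lists, 21 passed the filter and none was called, with a median of -0.063.

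The genes called in Golden Promise were compared with the same contrast in the winter varieties. The winter libraries do not enter the difference between waterlogged and control Golden Promise roots, but they shared the filter and the estimate of spread with it. With the 6 Golden Promise libraries alone edgeR called 126 genes, of which 69 were among the 91. Of the 78 upregulated genes, 68 had an adjusted p under 0.05 with a rise in Infinity, 36 did so in Passport, 44 in Pilastro and 74 in Regina, beside 3%, 0.729%, 2.46% and 2.56% of all genes tested in these 4 varieties. None of the 91 genes was called in the opposite direction in another variety. The sign was the same for 77, 77, 78 and 76 of the 78 genes in Infinity, Passport, Pilastro and Regina. Of the 13 downregulated genes, 9, 7, 7 and 9 were downregulated in these varieties, beside 0.923%, 0.355%, 1.36% and 1.49% of all genes. In total 33 of the 91 genes were called in all 5 varieties.

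The median log2 fold change of the 78 genes was 2.56 in Golden Promise, where they were selected, against 2.19 (Infinity), 1.66 (Passport), 1.72 (Pilastro) and 3.01 (Regina). HvADH1 rose by 3.22 on the log2 scale in Golden Promise, against 3.54, 2.92, 2.93 and 4.47 in the same order of winter varieties, and HvPDC1 by 2.69, against 3.04, 2.23, 2.71 and 3.42. ADH1_C was an exception in sign, since its fitted log2 fold change in Passport was negative, without a call (edgeR adjusted p = 0.337). ADH1_B, RBOH and HRE1 were not called in Passport either (edgeR adjusted p = 0.122, 0.0668 and 0.0596). In Pilastro, ADH1_B and RAP2.3 were not called (edgeR adjusted p = 0.0991 and 0.0548). Of the 5 genes called in Golden Promise and in no other variety, which are named here after their values were seen, 4 have been described above: SGF29, Early nodulin 93, the initiation factor gene and 4HG0404730. The fifth, 5HG0475330, had no count in waterlogged Golden Promise roots and 1.13, 0 and 1.73 CPM in control roots, against at least 5.00 CPM in every winter library, in both treatments. Early nodulin 93 had no count at all in the 12 libraries of Infinity and Regina, and in waterlogged Passport and Pilastro roots it averaged 184 ± 42.3 and 184 ± 120 CPM, against 13.6 ± 7.96 and 19.2 ± 28.6 CPM in their controls (SD, n = 3 each). Whether the responses themselves differed was tested with the contrast of responses.

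**Figure D4:**
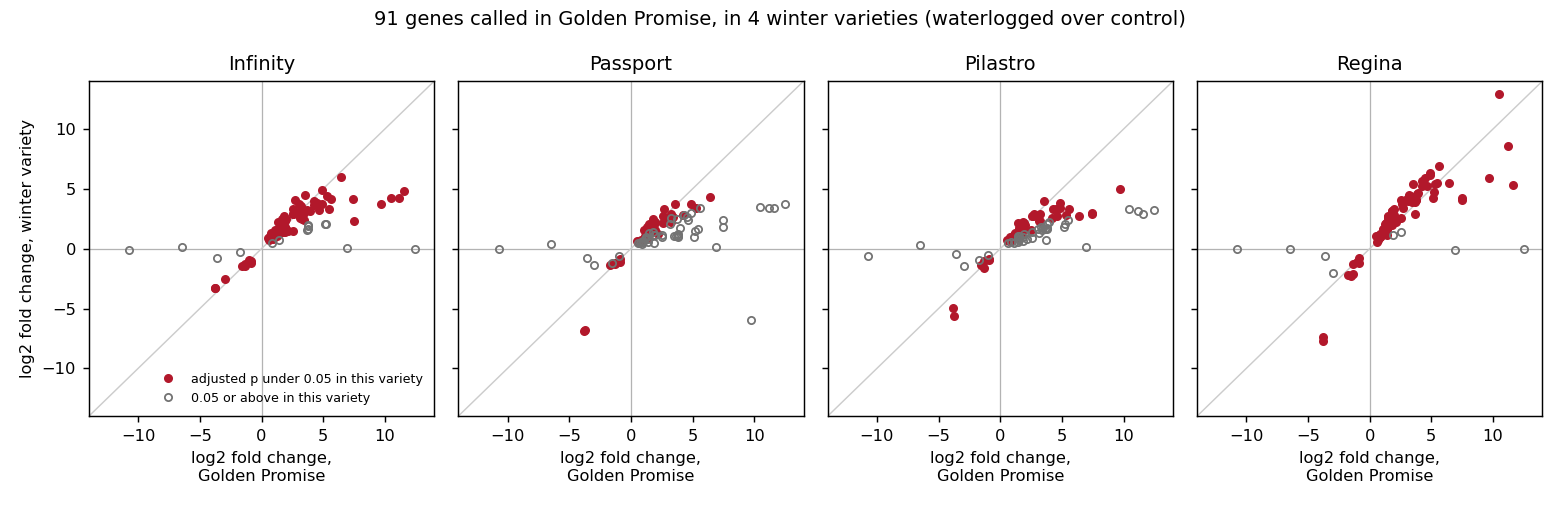
Log2 fold change, waterlogged over control, of the 91 genes called in Golden Promise (horizontal axis) and in each of 4 winter varieties (vertical axis), with genes at an adjusted p under 0.05 in the winter variety filled and the others open. Nearly all genes lie in the quadrants where both changes have the same sign, the grey diagonal marks equal change, and Regina holds the most filled points (74 up and 9 down). Fitted values beyond about 6 belong mostly to genes with a group at or near 0.

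The response of Golden Promise minus the mean response of the 4 winter varieties was tested in the same fit. It differed for 2 of 20576 genes (0.00972%) at an edgeR adjusted p under 0.05, and for 1013 (4.92%) at an unadjusted p under 0.05. DESeq2 called 29 genes, so this number depended on the tool. The first was the SGF29 gene 5HG0450920, at 0 CPM in all 3 waterlogged Golden Promise libraries, while in waterlogged roots of the winter varieties it averaged 16.8 ± 5.53 CPM (SD, n = 12). The difference in response was -10.54 on the log2 scale (SE 1.45, edgeR adjusted p = 0.00407), a fitted value that is no measure of size because 1 group is at 0. With the replicate number within each variety as a block, the gene was not called in this contrast (edgeR adjusted p = 0.167). Of the winter libraries, 1 waterlogged library of Pilastro was at 0 too, and the other 11 had up to 21.5 CPM. Against single varieties, the gene was called in the contrasts with Infinity (edgeR adjusted p = 0.0465), Passport (0.0349) and Regina (0.0359) but not with Pilastro. In each of the 4 single contrasts 1 gene was called (0.00486% of those tested).

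The second gene, 5HG0510870, has no description at hand and was singled out for this result. It had 60.5, 54.8 and 45.3 CPM in waterlogged Golden Promise roots, against 50.6, 70.4 and 61.5 CPM in control roots, with overlapping groups (log2 fold change -0.18, SE 0.227, edgeR adjusted p = 1). In the winter varieties it averaged 4.00 ± 1.03 CPM in waterlogged and 18.3 ± 3.41 CPM in control roots (SD, n = 12 each), and no waterlogged winter library overlapped with any winter control. The response in Golden Promise was 2.01 higher on the log2 scale than the mean of the others (SE 0.264, edgeR adjusted p = 0.00216). In the single contrasts it was called against Pilastro (difference 2.24, SE 0.341, edgeR adjusted p = 0.0231) and not against the other 3. All 6 Golden Promise libraries were also higher than any of the 24 winter libraries, the highest of which had 25.1 CPM. None of the 14 hypoxia response genes passed the contrast with the mean of the winter varieties in edgeR (lowest adjusted p = 0.87) or DESeq2. An unadjusted edgeR p under 0.05 was found for 5 of the 14, beside 4.92% of all genes.

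**Figure D5:**
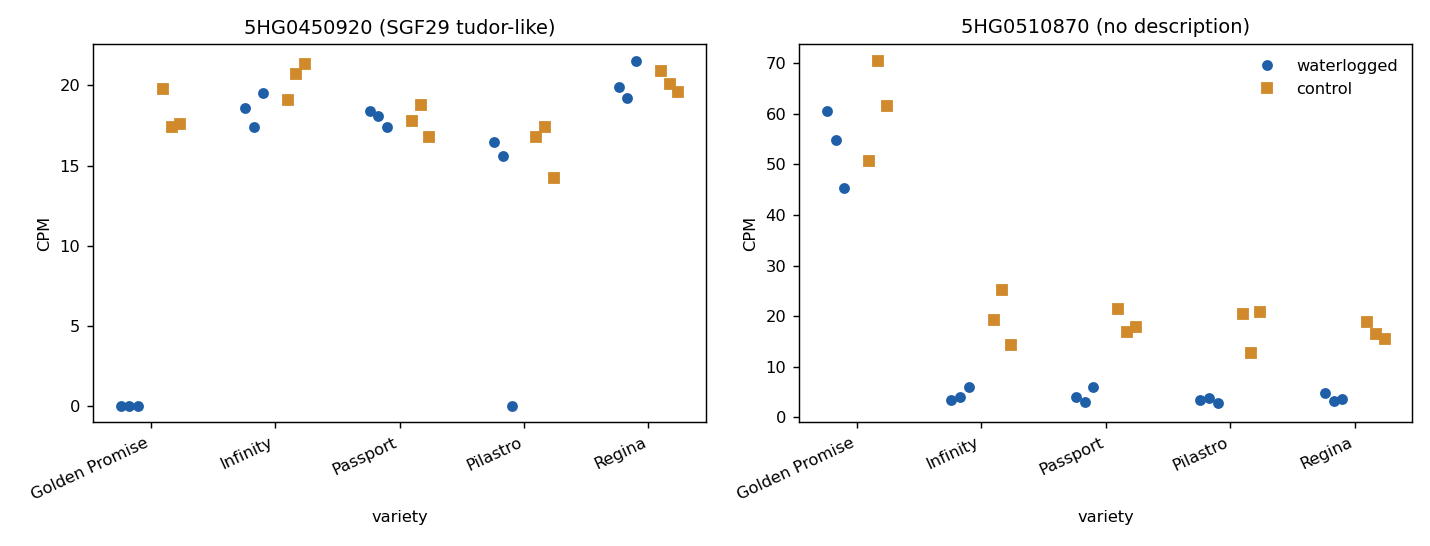
CPM in all 30 libraries of the 2 genes whose response in Golden Promise differed from the mean of the other varieties, with waterlogged (circles) left of control libraries (squares) in each variety. The SGF29 gene on the left is at 0 in the 3 waterlogged Golden Promise libraries and 1 waterlogged Pilastro library, and gene 5HG0510870 on the right lies between 45.3 and 70.4 CPM in Golden Promise and at 25.1 CPM or less in every winter library.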

How the data were processed

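RNA from roots was sequenced by the authors as single-end reads, and per the submitters' processing notes the reads were handled with Bowtie2 2.4.5, SAMtools 1.15.1 and StringTie 2.1.7, on the Morex V3 genome. The deposited values are raw counts per gene, not normalized, in 1 table of 30 libraries, and it is not stated how reads shared by similar copies were divided. Here the counts were fitted with edgeR 4.0.16 (R 4.3.3): filterByExpr by group, TMM, the quasi-likelihood F-test and 1 coefficient for each of the 10 groups, with Benjamini-Hochberg adjustment over 20576 genes and a threshold of 0.05. All 30 libraries shared 1 estimate of spread. Contrasts were Golden Promise waterlogged minus control, and this response minus the mean response of the other 4 varieties and minus that of each. DESeq2 1.42.0 and other settings served as alternatives. Standard errors (SE) are the log2 fold change divided by the root of F. Where a group had no count, a floor of 3 counts per library was used for the bound, which covers counting error only.

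Gene descriptions were at hand for 4768 genes, from the part of the study's supplementary tables used here. The members and the gene lists were chosen with earlier results of these data known. Named were the hypoxia and lowered genes the study names, every list member called, the described genes called (up to 15 up and 10 down), up to 2 called genes without a description in each direction by smallest p, and the genes called in the contrast of responses. The text also gives values of further list members near the threshold and says which genes were singled out later. No promoter or protein sequence is shown.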

Additional observations from a re-analysis of the deposited data

Results flagged for a closer look

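For 2 genes the response in Golden Promise differed from the mean response of the other 4 varieties in the test of that difference. The response of the SGF29 tudor-like gene 5HG0450920 differed by -10.54 on the log2 scale in Golden Promise (edgeR adjusted p = 0.00407), where all 3 waterlogged libraries were at 0. This gene was not called with the replicate number within each variety as a block (edgeR adjusted p = 0.167). For gene 5HG0510870 the difference was 2.01 on the log2 scale (edgeR adjusted p = 0.00216), with 53.5 ± 7.67 CPM in waterlogged and 60.8 ± 9.90 CPM in control roots of Golden Promise (SD, n = 3 each), while it fell in each of the other varieties. Groups of 3 libraries were too small to test whether a single library stood apart.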

How the results depend on the processing

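The 33 named genes that were called kept their direction under each of the 15 alternatives that gave a value for them. They were selected on these same libraries, so this outcome was largely set in advance. Of the 33 called genes, glmTreat turned off the calls of 28, leaving out 1 library those of 12 to 27, and the other settings those of 0 to 7. Counts of calls moved more, and the cause was not tested. With DESeq2, 231 genes were called (184 up, 47 down), 32 members of gene lists and 29 genes in the contrast of responses. With DESeq2 on the 6 Golden Promise libraries alone, 387 genes were called (312 up, 75 down), with 37 list members. Against a 2-fold change (glmTreat), 6 genes remained called, all 6 among the 91 (5 up, 1 down), with 3 list members. Without a filter, 8 genes were downregulated. With DESeq2's size factors the total was 96, without a filter 82, with at least 1 CPM in 3 Golden Promise libraries 102, and with edgeR on the 6 libraries alone 126. Leaving out 1 library gave 7 to 60 calls, 5 to 49 up and 2 to 11 down, with 0 to 11 list members against 17 with all libraries, and 2 to 4 genes in the contrast of responses. The 0 was found without control replicate 3, where edgeR gave 60 list members an unadjusted p under 0.05, and the 4 without control replicate 1.

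Whether a replicate number marks a shared run is not stated. Over 14722 genes, the deviations of waterlogged and control libraries correlated by -0.0752, 0.327 and 0.374 for the same numbers 1, 2 and 3, and by -0.427 to 0.0805 for different numbers. Deviations within a group of 3 libraries depend on each other, so these values are not separate evidence for each number. No pairing was assumed. With the replicate number within each variety as a block, the fit of all 30 libraries called 134 genes (109 up, 25 down). It called 8 genes in the contrast of responses, where SGF29 was no longer called (edgeR adjusted p = 0.167). With the replicate number as a block, the fit of the 6 libraries alone called 205 (163 up, 42 down) and 28 list members. Depth limited the low genes, since a call could rest on at most 10 counts in any Golden Promise library, as for 4HG0404730.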

Other observations

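Several upregulated genes had IDs close to each other, a pattern that was noticed after the calls were made and is given as a description. Of the 78 upregulated genes, 15 had another upregulated gene within 200 ID units on the same chromosome, while 4% of all genes tested had an upregulated gene that close. They formed 4 runs. On chromosome 2H, 6 of 7 tested genes of 1 run, all without a description at hand, rose together by 3.65 to 5.47 on the log2 scale. Their summed level was 130, 250 and 177 CPM in waterlogged Golden Promise roots, against 7.78, 15.0 and 9.95 CPM in control roots. In the winter varieties this run differed in its calls, with 6 members upregulated in Regina, 1 in Infinity and none in Passport or Pilastro, where the median log2 fold changes were 1.03 and 1.78. None of these genes was called in the contrast of the Golden Promise response with the mean response of the winter varieties. Differences among the winter varieties were not tested.

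On chromosome 7H, a run of 4 upregulated genes held Early nodulin 93. Its members summed to 154, 219 and 126 CPM in waterlogged roots, against 0, 4.69 and 1.89 CPM in control roots. In the winter varieties 3 members were upregulated in Infinity, 3 in Regina, 1 in Pilastro and none in Passport. Early nodulin 93 itself was called in no winter variety. The third run, of 3 genes on chromosome 3H, summed to 257, 364 and 395 CPM in waterlogged roots, against 82.6, 77.1 and 99.7 CPM in control roots, and all 3 were also upregulated in Infinity, Passport and Regina. The last was the pair of ADH1_D and HvADH1 on chromosome 4H, which was upregulated in all 5 varieties. Genes with close IDs can be copies that share reads, so their counts may not be independent of each other.

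Genes that were all or none were few. Of the genes tested, 8 had no count in any control and at least 30 counts in every waterlogged library, among them ADH1_B, ADH1_C and Early nodulin 93, and 5 of the 8 were called. The reverse pattern was found for 1 gene, SGF29.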
